A study of Homo sapiens with 15 samples.

Results

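The NF-κB group comprised 10 genes chosen by name: the 5 subunit genes NFKB1, NFKB2, REL, RELA and RELB, the inhibitor genes NFKBIA and NFKBIE, and TNFAIP3, TNFAIP2 and BIRC3, which respond to the pathway. Of these, 9 had a named probe set among the 11963 genes of the arrays, and BIRC3 was not analysed here. Where several probe sets stood for a gene, the brightest on average across the 15 arrays was read. The cells were MCF-10A, an immortalized, non-tumorigenic line of human mammary epithelium, harvested for total RNA 48 hours after infection with a retrovirus or an adenovirus. The sources used here do not say which virus served which experiment. In a knockdown arm, 2 arrays each held cells with a control vector for short hairpin RNA (shRNA), with shDBD, a hairpin aimed at the DNA-binding domain of p63, which its isoforms share, and with shTA, a hairpin aimed at the transactivation (TA) domain, which only some isoforms carry. In an overexpression arm, 3 arrays each held cells with a control vector (OE vector), with ΔNp63α, an isoform without that domain, and with TAp63γ, an isoform with it. The transcript of p63 itself was not analysed here and could not serve as a check of the labels.

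NF-κB is a family of dimeric transcription factors that share a Rel homology domain for DNA binding and pairing. In resting cells the dimers are held in the cytoplasm by IκB proteins. Receptors for cytokines and microbial products activate a kinase complex that marks IκB for destruction, and the released dimers enter the nucleus and induce inflammatory genes. A second, slower route processes the NFKB2 precursor and frees dimers with RelB. The dimers also induce their own inhibitors and several of their own subunits, so the transcript levels of these genes are commonly read as traces of pathway activity.

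The feedback genes are known for κB sites in their promoters, and matches to that site are shown to let the letters be seen beside the values. NFKB2, REL, NFKBIA and TNFAIP3 hold a match and were called higher with ΔNp63α, and TNFAIP2 holds none and was called in no comparison. With TAp63γ, NFKB2, NFKBIA and TNFAIP3 were called higher and REL was not. NFKB1 holds a match and was called in no comparison, and RELA holds none and was called with TAp63γ. These genes are too few to relate a match to a call, and that was not tested. RefSeq start sites on GRCh38.p14 gave 12 windows of 250 bases upstream for 8 of the 10 genes, and NFKBIE and RELB had no entry. The 10-base κB consensus was searched on both strands, and overlapping matches were allowed. It was found in 7 of the 12 windows, against 9.95% of 34943 upstream windows of that length. Counting a gene when any of its windows matched, it was found in 6 of the 8 genes, BIRC3 among them. The share by gene is not comparable with the share by window. The upstream window of NFKBIA, which encodes IκBα, is given whole (chr14:35404750-35404999, minus strand), with the match in capitals.

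NFKBIA: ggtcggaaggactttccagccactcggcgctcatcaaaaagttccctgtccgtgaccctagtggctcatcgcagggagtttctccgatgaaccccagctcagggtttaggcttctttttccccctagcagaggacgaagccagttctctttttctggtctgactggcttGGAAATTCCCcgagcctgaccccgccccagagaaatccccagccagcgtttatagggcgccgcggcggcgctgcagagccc

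Of the matches in the other measured genes, 6 are shown, leaving out shifted copies of the same stretch and other NFKB2 matches. They are given with the 10 bases on either side, all written as the plus strand, with the match in capitals. Both TNFAIP3 matches fit the consensus when read on the opposite strand. They lie at chr4:102501310-102501319 for NFKB1, at chr10:102394500-102394509 and chr10:102395684-102395693 for NFKB2, at chr2:60881527-60881536 for REL, and at chr6:137867192-137867201 and chr6:137867204-137867213 for TNFAIP3.
NFKB1: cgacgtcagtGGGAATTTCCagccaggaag
NFKB2, first: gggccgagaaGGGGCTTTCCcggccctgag
NFKB2, second: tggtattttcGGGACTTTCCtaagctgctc
REL: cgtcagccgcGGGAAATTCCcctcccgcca
TNFAIP3, first: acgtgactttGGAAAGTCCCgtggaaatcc
TNFAIP3, second: aaagtcccgtGGAAATCCCCgggcctacaa
The windows of RELA and TNFAIP2 held no match. A match is a run of letters and was not tested for binding.

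Levels are log2 values made by robust multi-array averaging (RMA), and both arms appear to have been normalized separately, so groups were compared within an arm. Correlations between replicate arrays ran from 0.9976 to 0.998 for the knockdown groups. For the overexpression groups they ran from 0.9925 to 0.9979, and ΔNp63α replicate 3 gave the lowest values (0.9925 and 0.9935 with its replicates). The counts of members and of list genes with ΔNp63α are also given without it. The cells carried their epithelial markers: 11 of 13 measured ones lay above the 80th percentile of every array, while KRT19, a luminal keratin, lay below the 20th percentile in all 15. Of 16 leukocyte markers, 0 lay above the 60th percentile in all arrays, and the pan-leukocyte gene PTPRC stayed between the 23.4 and 30.1 percentile. Of 8 endothelial markers 0 did so. Of 9 fibroblast markers 3 did (COL1A1, DCN and FBLN1), while LUM lay below the 20th percentile in all 15 arrays.

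Each change is a log2 fold change with its SE, estimated by limma. Knockdown groups had n = 2 arrays and overexpression groups n = 3. A gene is called higher or lower at an adjusted p (Benjamini-Hochberg over 11963 genes) under 0.05. The labels call the replicates biological without saying whether they were separate infections, so the p-values measure the spread between these arrays. That spread was estimated for each gene over both arms together, so the SE of a knockdown change also reflects the overexpression arrays. RMA compresses differences at low levels and the number of arrays limits the precision.

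**Figure D1:**
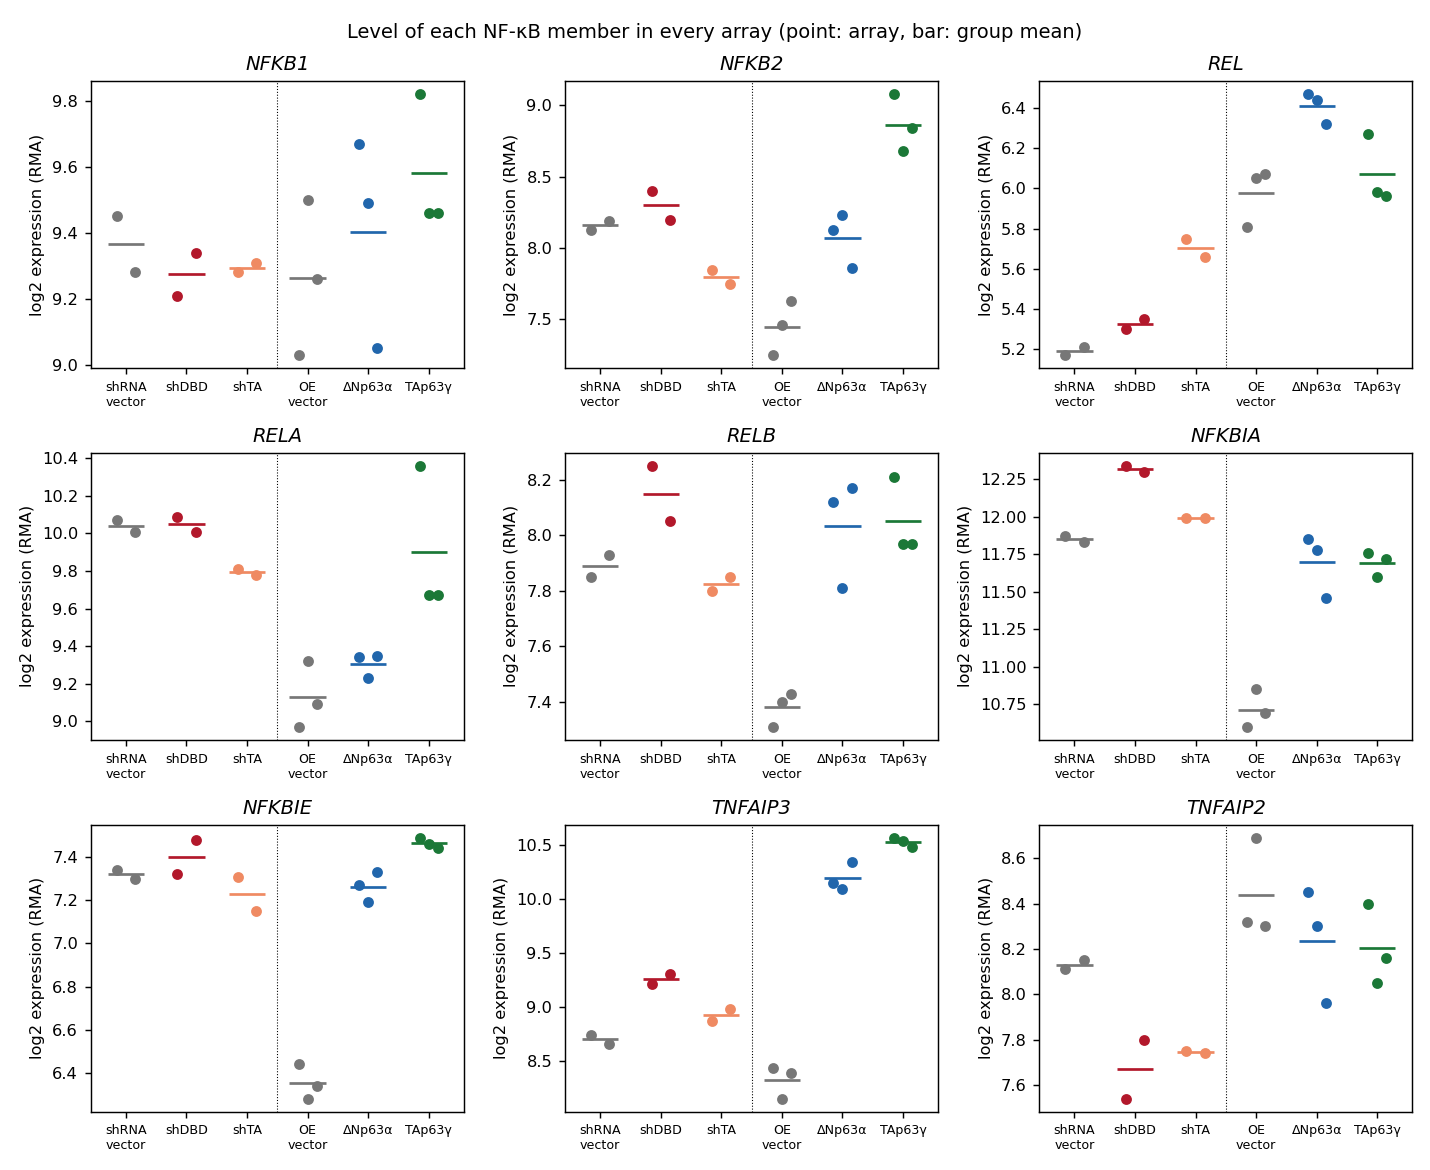
Level of 9 NF-κB genes (log2 RMA value, y axis, with a scale of its own in each panel) in each of the 15 arrays by group (x axis), with a bar at the group mean and a dotted line between the arms, which appear to have been normalized separately. TNFAIP3 lies between 8.15 and 8.43 with the overexpression vector and at 10.09 or above with either isoform.

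The overexpression arm compared cells given each isoform with cells given the vector. With ΔNp63α, 6 of the 9 genes were called higher and 0 lower by limma, where 12.3% of all genes were called higher and 16.6% lower (28.9% in either direction). With TAp63γ, 6 of 9 were called higher and 0 lower, where 20.5% of all genes were called higher and 22.8% lower (43.4% in either direction). At an unadjusted p under 0.05 the number of lower members was also 0 with either isoform. The isoform and vector arrays did not overlap for 6 members with ΔNp63α and 6 with TAp63γ, which held for 36.5% and 49.9% of all genes. The median change of the 9 genes was 0.63 with ΔNp63α and 0.77 with TAp63γ, beside medians over all genes of −0.005 and −0.023. Both isoforms were compared with the same 3 vector arrays, so their changes are not independent. The member counts were 6 and 7 without ΔNp63α replicate 3, and the ΔNp63α changes of the 6 called genes then ran from 0.48 (REL) to 1.80 (TNFAIP3). Epithelial markers moved as well: 5 of 13 were higher and 5 lower with ΔNp63α, and 6 higher and 4 lower with TAp63γ, with the basal keratin KRT14 up by 1.90 ± 0.094 and 2.08 ± 0.094. The actin 3′ minus 5′ value, a sign of RNA integrity, was 0.17 ± 0.0578 (SD, n = 3) with the vector, 0.162 ± 0.0594 with ΔNp63α and 0.0772 ± 0.0663 with TAp63γ. The part of these in the members' changes was not tested.

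TNFAIP3, which encodes A20, the ubiquitin-editing enzyme that shuts off signalling upstream of NF-κB, had the largest change of the 9 genes in this arm. Its levels were 8.43, 8.15 and 8.39 with the vector, 10.15, 10.09 and 10.34 with ΔNp63α, and 10.57, 10.54 and 10.48 with TAp63γ. No group overlapped another, and the order was vector, ΔNp63α, TAp63γ. TNFAIP3 rose by 1.87 ± 0.091 with ΔNp63α (3.66-fold, adjusted p = 4.87e-10) and by 2.21 ± 0.091 with TAp63γ (4.62-fold, adjusted p = 2.75e-11). A second TNFAIP3 probe set gave 1.98 and 2.41.

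NFKBIA encodes IκBα, the inhibitor that NF-κB resynthesizes to end its own response. Its levels were 10.6, 10.85 and 10.69 with the vector, 11.85, 11.78 and 11.46 with ΔNp63α, and 11.76, 11.6 and 11.72 with TAp63γ. Every isoform array lay above every vector array, and the isoforms' arrays overlapped. The rise was 0.98 ± 0.092 with either isoform (1.98-fold, adjusted p = 9.12e-07 and 3.52e-07).

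NFKBIE encodes IκBε, another cytoplasmic inhibitor that is itself induced. Its levels were 6.44, 6.28 and 6.34 with the vector, 7.27, 7.19 and 7.33 with ΔNp63α, and 7.49, 7.46 and 7.44 with TAp63γ, again without overlap between any of the groups. It rose by 0.92 ± 0.074 with ΔNp63α (adjusted p = 1.93e-07) and by 1.12 ± 0.074 with TAp63γ (adjusted p = 7.94e-09).

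Among the subunits, NFKB2, which encodes p100, the precursor of p52 and an inhibitor in its unprocessed form, rose with both isoforms. Its levels were 7.25, 7.46 and 7.63 with the vector, 8.13, 8.23 and 7.86 with ΔNp63α, and 9.08, 8.68 and 8.84 with TAp63γ. The groups did not overlap, and the order was the same as for TNFAIP3. The rise was 0.63 ± 0.12 with ΔNp63α (1.55-fold, adjusted p = 0.000989) and 1.42 ± 0.12 with TAp63γ (2.67-fold, adjusted p = 1.3e-07). A second NFKB2 probe set rose by 0.71 and 1.04. Another lay below the 20th percentile in all 15 arrays and was not called. With the mean of all 3, the NFKB2 change with TAp63γ was 0.78 (adjusted p = 1.93e-07).

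RELB encodes the partner of p52 in the slower route. It stood at 7.31, 7.4 and 7.43 with the vector, at 8.12, 7.81 and 8.17 with ΔNp63α and at 8.21, 7.97 and 7.97 with TAp63γ. Both isoforms lay above the vector and overlapped each other. RELB rose by 0.65 ± 0.1 with ΔNp63α (adjusted p = 0.000145) and by 0.67 ± 0.1 with TAp63γ (adjusted p = 5.28e-05).

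RELA encodes p65, the main activating subunit of the fast route. Its levels were 8.97, 9.32 and 9.09 with the vector, 9.34, 9.23 and 9.35 with ΔNp63α, and 10.36, 9.67 and 9.67 with TAp63γ. The TAp63γ arrays lay above all the others, with replicate 1 the highest, and the ΔNp63α and vector arrays overlapped. RELA rose with TAp63γ by 0.77 ± 0.15 (1.71-fold, adjusted p = 0.00038), or by 0.55 without TAp63γ replicate 1 (adjusted p = 0.000319). The change with ΔNp63α was 0.18 ± 0.15 (95% confidence interval −0.13 to 0.49, adjusted p = 0.416). A second RELA probe set, with a lower mean, rose by 0.43 with TAp63γ.

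REL encodes c-Rel, a subunit best known from lymphocytes. It stood at 5.81, 6.05 and 6.07 with the vector, at 6.47, 6.44 and 6.32 with ΔNp63α and at 6.27, 5.98 and 5.96 with TAp63γ. The ΔNp63α arrays lay above all the others, while TAp63γ and vector overlapped. REL rose by 0.43 ± 0.09 with ΔNp63α (1.35-fold, adjusted p = 0.00168), and its change with TAp63γ was 0.09 ± 0.09 (interval −0.1 to 0.29, adjusted p = 0.442). The other REL probe set lay below the 20th percentile in all 15 arrays, and with the mean of both the ΔNp63α change was 0.20 (adjusted p = 0.0424).

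The remaining members were not called. NFKB1, which encodes p105, the precursor of p50, ranged from 9.03 to 9.5 with the vector, from 9.05 to 9.67 with ΔNp63α and from 9.46 to 9.82 with TAp63γ. Its changes were 0.14 ± 0.15 (adjusted p = 0.559) and 0.32 ± 0.15 (interval 0 to 0.64, adjusted p = 0.106). The TAp63γ change of NFKB1 passed the threshold under 3 of 26 alternatives: without OE vector replicate 2 (0.43, adjusted p = 0.036), without ΔNp63α replicate 3 (adjusted p = 0.0374) and with cyclic loess normalization (adjusted p = 0.0474). TNFAIP2, a gene induced by tumour necrosis factor, had levels of 8.32, 8.69 and 8.3 with the vector, 8.45, 8.3 and 7.96 with ΔNp63α, and 8.4, 8.05 and 8.16 with TAp63γ. These groups overlapped, and the changes were −0.20 ± 0.13 and −0.24 ± 0.13 (adjusted p = 0.306 and 0.181).

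**Figure D2:**
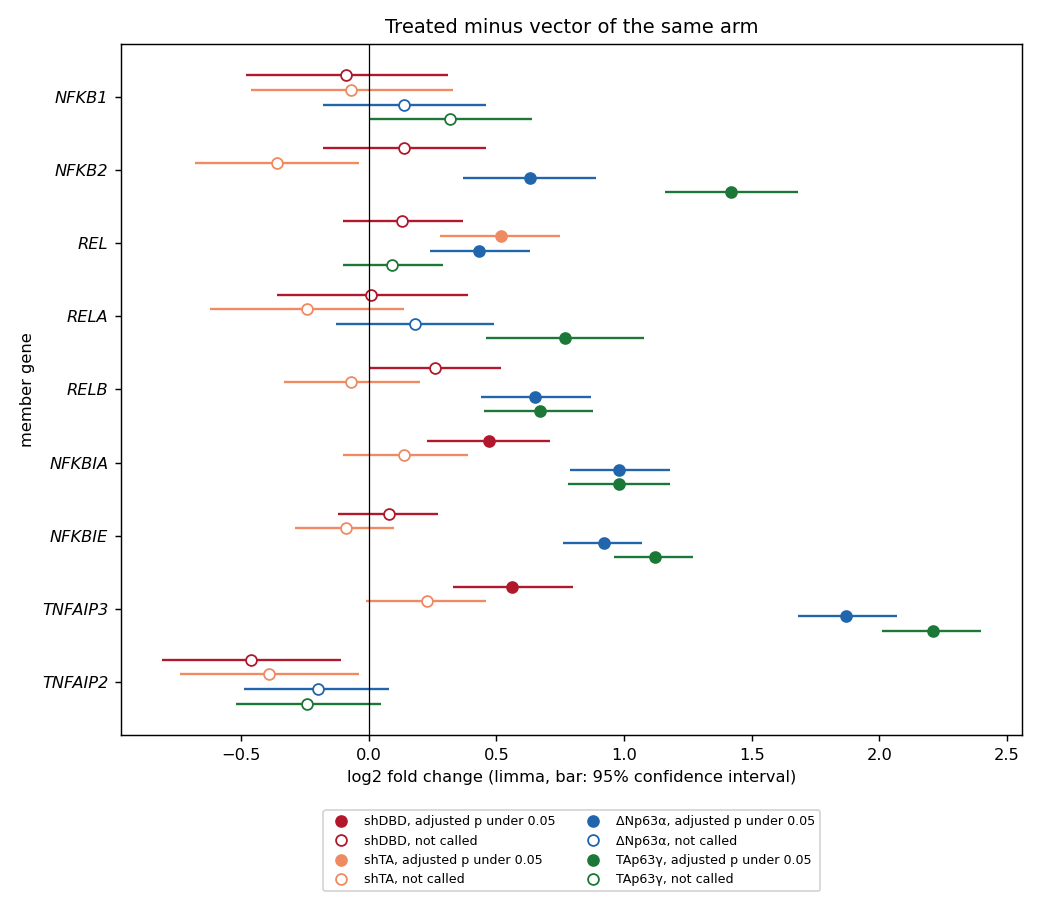
Log2 fold change (x axis) of 9 NF-κB genes (y axis) with each treatment against the vector of its arm, with 95% confidence intervals from limma and filled points for an adjusted p under 0.05. With both isoforms TNFAIP3 changed most, by 1.87 and 2.21, and the knockdown changes lie between −0.46 and 0.56.

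Tested directly, ΔNp63α and TAp63γ differed in 5 of the 9 genes. REL was higher with ΔNp63α, and NFKB2, RELA, NFKBIE and TNFAIP3 were lower; of all genes, 19.2% were called higher and 20.6% lower (39.8% in either direction). The isoforms' arrays did not overlap for these 5 members, which held for 45.8% of all genes. The difference, ΔNp63α minus TAp63γ, was −0.79 ± 0.12 for NFKB2 (1.73-fold, adjusted p = 9.38e-05) and −0.59 ± 0.15 for RELA (adjusted p = 0.00393). The RELA difference was −0.37 without TAp63γ replicate 1 (adjusted p = 0.00789). The NFKB2 difference was −0.32 with the mean of its probe sets (adjusted p = 0.00133). The second NFKB2 probe set was also lower (−0.33, adjusted p = 0.0135), and the second RELA probe set did not pass (−0.32, adjusted p = 0.0592). The difference was −0.34 ± 0.091 for TNFAIP3 (adjusted p = 0.00768) and 0.34 ± 0.09 for REL (adjusted p = 0.00676). With the mean of the REL probe sets that gene was not called (0.14, adjusted p = 0.131).

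The NFKBIE difference was small (−0.20 ± 0.074, adjusted p = 0.0437), and 13 of 26 alternatives kept its call. It was lost without any 1 of the TAp63γ arrays, ΔNp63α replicates 1 or 2, OE vector replicate 3 or either shRNA vector array, and under 5 other settings, with adjusted p up to 0.141. For NFKBIA the difference was 0 ± 0.092 (interval −0.19 to 0.2) and for RELB −0.02 ± 0.1 (−0.23 to 0.2). NFKB1 (−0.18 ± 0.15) and TNFAIP2 (0.03 ± 0.13) were not called either.

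**Figure D3:**
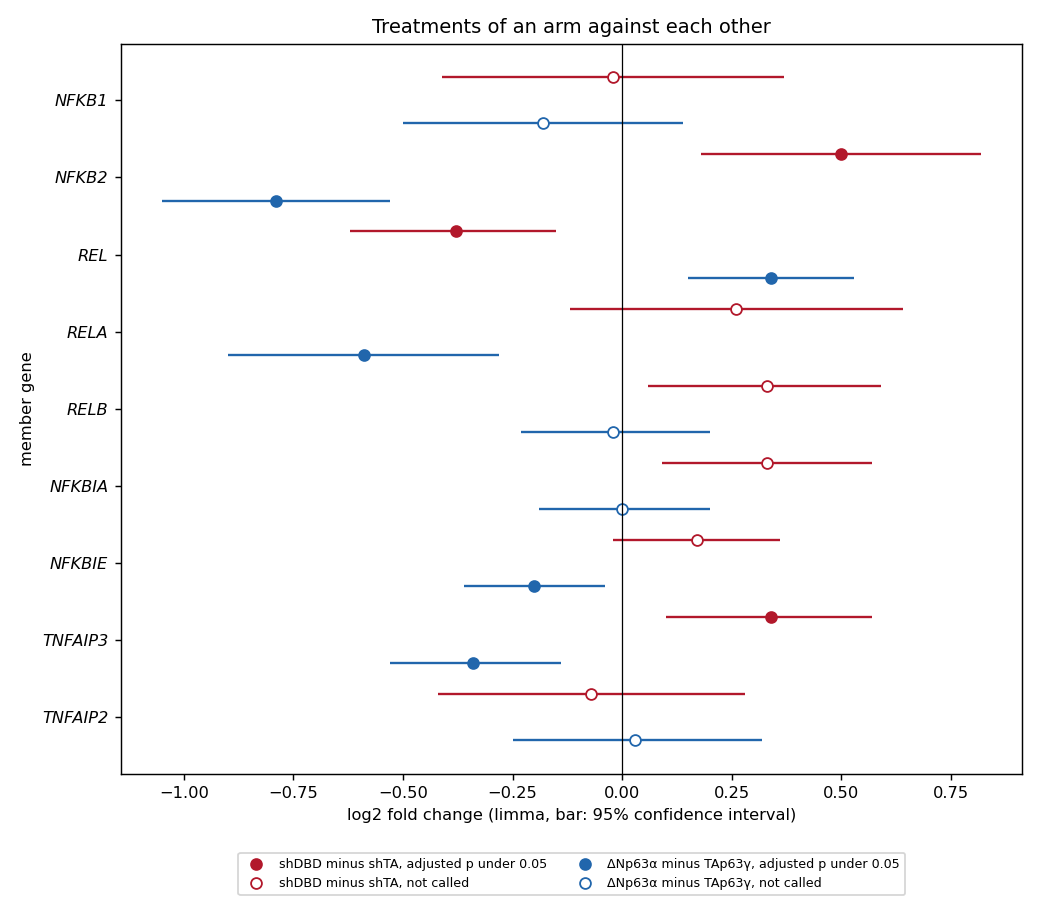
Log2 difference (x axis) of 9 NF-κB genes (y axis) between both treatments of an arm, with 95% confidence intervals from limma and filled points for an adjusted p under 0.05. NFKB2 (−0.79) and RELA (−0.59) were lower with ΔNp63α than with TAp63γ, and REL (0.34) was higher.

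The knockdown arm compared cells given each hairpin with cells given the shRNA vector, and both hairpins share the same 2 vector arrays. With shDBD, 2 of the 9 genes were called higher and 0 lower by limma, where 11.1% of all genes were called higher and 10.2% lower (21.3% in either direction). With shTA, 1 of 9 was called higher and 0 lower, against 1.44% and 0.853% of all genes (2.29% in either direction). At an unadjusted p under 0.05, 1 member was lower with shDBD and 2 with shTA. The groups did not overlap for 6 of 9 members in either comparison, which was the case for 61.7% and 50.7% of all genes. The actin 3′ minus 5′ value was −0.0868 ± 0.00982 (SD, n = 2) with the vector, 0.0668 ± 0.0262 with shDBD and 0.102 ± 0.14 with shTA. Markers also moved: 6 of 13 epithelial markers were lower and 1 higher with shDBD, 9 of 17 interferon targets were higher and 1 lower, and DCN, a fibroblast proteoglycan gene, rose by 2.37 ± 0.13, with 1 of 9 fibroblast markers called. Of 16 leukocyte markers 1 was called, CSF1R (0.42 ± 0.1), and of 8 endothelial markers 2, PECAM1 (0.41 ± 0.12) and KDR (0.29 ± 0.093). With shTA, DCN rose by 0.83 ± 0.13, 2 of 13 epithelial markers were lower, LAMB3 (−0.76 ± 0.14) and KRT8 (−0.51 ± 0.12), and 1 of 17 interferon targets was lower, IRF9 (−0.46 ± 0.11). The part of these in the knockdown results was not tested.

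The genes called with shDBD were TNFAIP3 and NFKBIA. TNFAIP3 stood at 8.74 and 8.66 with the vector, 9.21 and 9.31 with shDBD, and 8.87 and 8.98 with shTA, without overlap. It rose by 0.56 ± 0.11 with shDBD (1.48-fold, adjusted p = 0.00159), and its second probe set rose by 0.43. The TNFAIP3 change with shTA was 0.23 ± 0.11 and was not called (interval −0.01 to 0.46, adjusted p = 0.414).

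NFKBIA stood at 11.87 and 11.83 with the vector, 12.34 and 12.3 with shDBD, and 11.99 and 11.99 with shTA, also without overlap. It rose by 0.47 ± 0.11 with shDBD (1.39-fold, adjusted p = 0.00665). Leaving out shRNA vector replicate 2 ended this NFKBIA call (0.45, adjusted p = 0.0537), and so did leaving out shDBD replicate 1 (0.46, adjusted p = 0.0521). With shTA the NFKBIA change was 0.14 ± 0.11 (adjusted p = 0.68).

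REL was the gene called with shTA. Its levels were 5.17 and 5.21 with the vector, 5.3 and 5.35 with shDBD, and 5.75 and 5.66 with shTA. The vector and shDBD arrays lay below the 20th percentile of their arrays, which was between 5.379 and 5.425 in this arm, so those levels were not shown to be above background. The change with shTA was 0.52 ± 0.11 (adjusted p = 0.0213, or 0.0703 with a replicate block). It was 0.30 with values floored at the 20th percentile (adjusted p = 0.177), and the call was lost on leaving out any 1 of the 4 arrays compared (adjusted p of 0.108 to 0.171).

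In the main fit the other members did not pass with either hairpin. With the arms fitted separately, NFKB2 and TNFAIP2 passed with shTA (adjusted p = 0.0285 and 0.0263). NFKB2 stood at 8.13 and 8.19 with the vector, 8.4 and 8.2 with shDBD, and 7.85 and 7.75 with shTA, with changes of 0.14 ± 0.15 and −0.36 ± 0.15 (adjusted p = 0.616 and 0.292). TNFAIP2 stood at 8.11 and 8.15 with the vector, 7.54 and 7.8 with shDBD, and 7.75 and 7.74 with shTA. Every hairpin array of TNFAIP2 lay below the vector arrays, and its changes were −0.46 ± 0.16 (adjusted p = 0.0617) and −0.39 ± 0.16 (adjusted p = 0.311). The shDBD change of TNFAIP2 passed under 5 of 26 alternatives, with adjusted p as low as 0.00261. Among the 5 were those without OE vector replicate 2 or without ΔNp63α replicate 1 or 3. A second TNFAIP2 probe set gave −0.12 with shDBD (adjusted p = 0.563) and −0.22 with shTA (adjusted p = 0.417).

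RELA lay at 10.07 and 10.01 with the vector, 10.09 and 10.01 with shDBD, and 9.81 and 9.78 with shTA (0.01 ± 0.18 and −0.24 ± 0.18). RELB lay at 7.85 and 7.93 with the vector, 8.25 and 8.05 with shDBD, and 7.8 and 7.85 with shTA (0.26 ± 0.12 and −0.07 ± 0.12). NFKB1 ranged over this arm from 9.21 to 9.45 and NFKBIE from 7.15 to 7.48. The intervals of the shDBD change were −0.48 to 0.31 for NFKB1 and −0.12 to 0.27 for NFKBIE.

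Between the hairpins, 3 of 9 genes were called, NFKB2 and TNFAIP3 higher with shDBD and REL lower, where 9.14% of all genes were called higher and 9.23% lower (18.4% in either direction). The hairpins' arrays did not overlap for 7 of 9 members and for 60.3% of all genes. The differences were 0.50 ± 0.15 for NFKB2 (adjusted p = 0.0284), 0.34 ± 0.11 for TNFAIP3 (adjusted p = 0.0468) and −0.38 ± 0.11 for REL (adjusted p = 0.0224). With a replicate block limma called 0 of these 3 (adjusted p = 0.0646, 0.0697 and 0.052). The adjusted p of TNFAIP3 was 0.0072 with the arms fitted separately and 0.0808 with cyclic loess. TNFAIP3 kept its call under 12 of 26 alternatives, REL under 19 and NFKB2 under 22. With the mean of their probe sets the difference was 0.32 for NFKB2 (adjusted p = 0.0108) and −0.13 for REL (adjusted p = 0.364). By limma the count was 0 without shDBD replicate 1 or either shTA array (4 or 5 members at an unadjusted p under 0.05) and 1 without shDBD replicate 2. NFKBIA (0.33 ± 0.11, adjusted p = 0.0572) and RELB (0.33 ± 0.12, adjusted p = 0.0866) did not pass in the main fit. With the arms fitted separately both passed (adjusted p = 0.000842 and 0.0168), as did RELA (0.26, adjusted p = 0.0157).

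The machinery around these genes was read from lists of receptors, adaptors and kinases, other inhibitors, and target genes. Of 53 measured targets, 36 were called higher and 3 lower with ΔNp63α, with a median of 0.55. With TAp63γ, 39 were called higher and 2 lower, with a median of 0.73. Both directions are to be read beside the shares of all genes given above. The lists were chosen with earlier results of these data known, so this contrast is not independent of them. TFPI2, a protease inhibitor, rose by 6.50 ± 0.11 and 6.54 ± 0.11 with ΔNp63α and TAp63γ, and MMP1, the interstitial collagenase, by 5.27 ± 0.13 and 5.59 ± 0.13. The vector levels of TFPI2 (4.25) and MMP1 (4) lay below the 20th percentile of this arm's arrays (5.057 to 5.127), so the sizes of these changes start from a level not shown to be above background. Between the isoforms, 8 of the 53 targets were higher and 22 lower with ΔNp63α, where 19.2% of all genes were called higher and 20.6% lower. The cytokine IL1B was lower (−2.18 ± 0.1) and the chemokine CCL20 higher (1.84 ± 0.15), the targets that differed most, named after their values were seen.

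Of 26 other inhibitors and brakes, 10 were called higher and 3 lower with ΔNp63α, and 13 higher and 4 lower with TAp63γ. Of all genes, 12.3% were called higher and 16.6% lower with ΔNp63α, and 20.5% and 22.8% with TAp63γ. This list was drawn broadly and also holds cell-death regulators such as CFLAR, so its counts do not cover NF-κB brakes alone. CFLAR, which blocks caspase-8, rose by 1.15 ± 0.082 and 1.74 ± 0.082, and TNIP1, a binding partner of A20, by 0.95 ± 0.12 and 1.27 ± 0.12. Of 28 adaptors and kinases, 8 were higher and 7 lower with ΔNp63α, and 10 higher and 9 lower with TAp63γ, with medians of −0.01 and 0.02. MYD88, the adaptor of Toll-like and interleukin-1 receptors, rose by 1.05 ± 0.086 and 1.33 ± 0.086. The receptor-associated kinase IRAK1 fell with ΔNp63α (−1.08 ± 0.089). MAP3K8, a kinase downstream of these receptors, rose with TAp63γ by 1.36 ± 0.13 from a vector level (3.88) below the 20th percentile.

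Of 21 receptors and sensors, 8 were higher and 2 lower with ΔNp63α, and 5 higher and 3 lower with TAp63γ. In either direction these were 47.6% and 38.1% of the list, beside 28.9% and 43.4% of all genes. The share with TAp63γ was thus below that of all genes, where 20.5% were higher and 22.8% lower. The RNA sensor RIGI rose by 3.84 ± 0.097 with ΔNp63α and by 1.43 ± 0.097 with TAp63γ, and was higher with ΔNp63α when tested directly (2.41 ± 0.097). The RNA sensor IFIH1 rose by 2.52 ± 0.15 with ΔNp63α. Its mean level was 7.33 with the vector, 9.86 with ΔNp63α and 8.14 with TAp63γ. The Toll-like receptor TLR2 rose by 1.25 ± 0.11 with TAp63γ, and its change with ΔNp63α was 1.33.

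Interferon targets moved in the same arm: 17 of 17 measured ones were called higher with ΔNp63α and 15 of 17 with TAp63γ, with medians of 3.24 and 2.16, and 17 of 17 were higher with ΔNp63α than with TAp63γ. IFIT1 (6.02 ± 0.16, from a vector level of 5.09, at the 20th percentile and not shown to be above background) and IFI44 (5.69 ± 0.09) were named by size with ΔNp63α, and IFI27 (5.06 ± 0.089) and IFI6 (3.66 ± 0.11) with TAp63γ. Without ΔNp63α replicate 3 the interferon counts were again 17, 15 and 17, and 35 NF-κB targets were higher and 3 lower with ΔNp63α. For the other lists with ΔNp63α, 7 receptors, 9 adaptors and kinases and 11 other inhibitors were then higher, and 2, 7 and 2 lower. With TAp63γ, 8 receptors in place of 5 were then called higher. Among the NF-κB members REL alone was called in that direction between the isoforms. The target and receptor lists were not filtered for genes that also respond to interferon. The part of viral infection or of interferon in the changes of the members and of the lists was not tested.

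In the knockdown arm the lists were called in both directions, and the counts are to be read beside the shares of all genes. These shares were 11.1% higher and 10.2% lower with shDBD, and 1.44% higher and 0.853% lower with shTA. With shDBD, 8 of 53 targets were called higher and 8 lower, with a median of 0.03. The prostaglandin synthase PTGS2 rose by 2.52 ± 0.28, from a vector level (4.81) below the 20th percentile, and PLAU, the urokinase gene, fell (−1.40 ± 0.1). Of 26 other inhibitors, 7 were higher and 3 lower with shDBD. CYLD, a deubiquitinase that restrains NF-κB, rose by 0.71 ± 0.095 with shDBD and by 0.75 ± 0.095 with shTA. PIAS1, which restrains DNA binding by NF-κB, rose with shDBD by 0.71 ± 0.099, and IER3, an early response gene, fell with shTA (−0.54 ± 0.088).

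Of 28 adaptors and kinases, 5 were higher and 3 lower with shDBD, and CARD10, a scaffold of the pathway, fell with both hairpins (−0.99 ± 0.12 and −0.48 ± 0.12). The adaptor TRAF5 fell with shDBD (−0.96 ± 0.14), and RBCK1, part of the linear ubiquitin ligase, fell with shTA (−0.39 ± 0.082). Of 21 receptors, 4 were higher and 2 lower with shDBD. The death receptor TNFRSF21 fell (−1.33 ± 0.11), and CD14, a co-receptor for bacterial lipopolysaccharide, rose by 1.27 ± 0.11. With shTA, 2 of 53 targets were higher and 4 lower, the chemokine CXCL8 among the latter (−1.06 ± 0.22), while S100A9, a calcium-binding alarmin, rose by 1.5 ± 0.11. The interleukin-1 receptor IL1R1 rose by 1.5 ± 0.13 with shTA, and TNFRSF12A, the receptor of the cytokine TWEAK, fell (−0.30 ± 0.075).

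**Figure D4:**
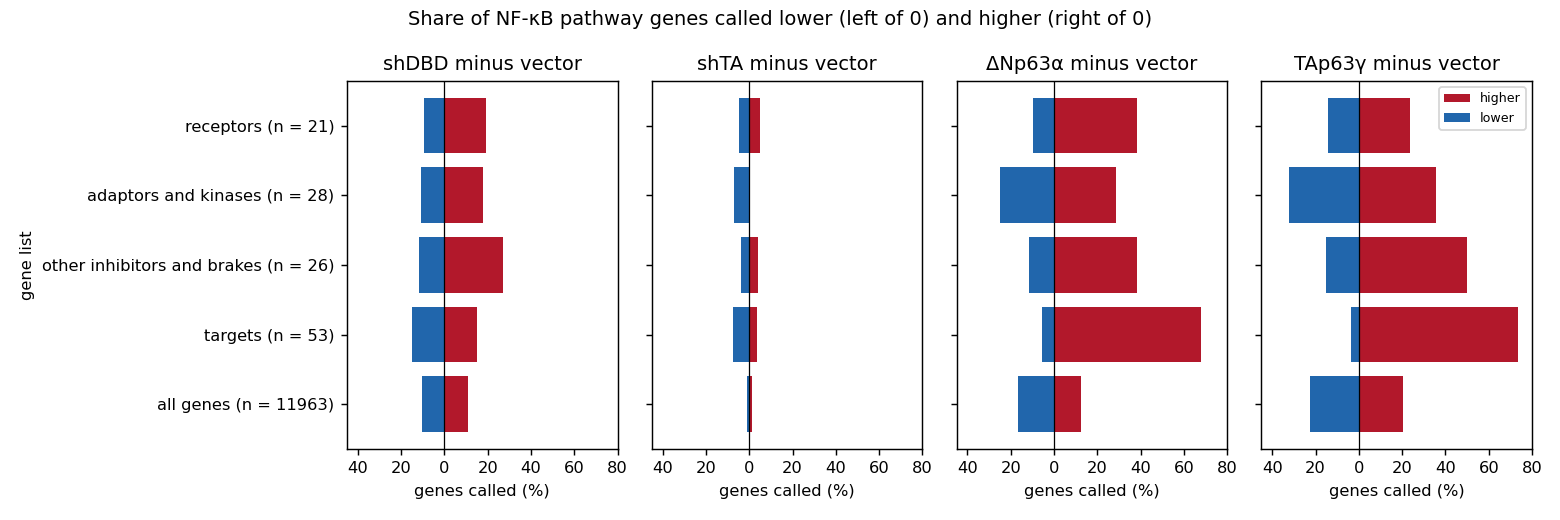
Percentage of the measured genes of each pathway list (y axis) called lower (left of 0) or higher (right of 0) by limma at an adjusted p under 0.05, with all 11963 genes as the last bar. The targets reach 36 of 53 higher with ΔNp63α and 39 of 53 with TAp63γ, where 12.3% and 20.5% of all genes were called higher. The lists were not filtered for genes that also respond to interferon. The lists were chosen with earlier results of these data known.

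The genes whose pattern was most like a member's were taken by Pearson correlation over the 15 arrays, after each arm's vector mean was subtracted, among genes called in at least 1 comparison with a vector. The arrays share groups and normalization, so these values only describe. TNFAIP3 went with COX6B1 (0.984), CD59 (0.982) and the member NFKBIE (0.981), and NFKBIE with CXCL8 (0.986), MMP1 (0.984) and NLRP3 (0.983). NFKBIA went with the phosphatase gene PTPN1 (0.983), with TLR2 (0.98) and with MAGED2 (0.979).

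NFKB2 went with PLEKHO1 (0.982), CD2BP2 (0.978) and RTL8C (0.977), and RELB with SSH3 (0.96), THEMIS2 (0.952) and HLA-C (0.95). RELA went with MINK1 (0.968), with NFKBIB (0.967), which encodes the inhibitor IκBβ, and with MED15 (0.965). The values were lower for REL, with SULT2B1 (0.879), RTP4 (0.771) and ELL2 (0.77). NFKB1 went with NUCB1 (0.907), PRDM1 (0.905) and BACE2 (0.895), and TNFAIP2 with DCBLD2 (0.899), CREB5 (0.896) and SPRED2 (0.893).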

How the data were processed

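The authors deposited log2 expression values per probe set (22277 probe sets, 15 arrays), and the submitters' processing notes name RMA as the method, with no version or settings in the sources used here. The medians of the knockdown arrays (7.189 to 7.213) exceeded those of the overexpression arrays (6.951 to 6.983), so contrasts stayed within an arm. The platform annotation gave 1 symbol to 19064 probe sets, several to 1043 and none to 2108, besides 62 control probe sets, and the probe set with the highest mean stood for each gene.

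limma 3.58.1 in R 4.3.3 fitted 1 mean for each group on the 15 arrays together (9 residual and 5.87 prior degrees of freedom, variance trend, two-sided, Benjamini-Hochberg over 11963 genes). The fit was tested on simulated data. The 20th percentile of an array served as its background bound. The members, lists and alternatives were chosen with earlier results of these data known. The text names all members, the 2 called genes with the largest change per pathway list and comparison with a vector, and the 3 genes most like each member. Upstream sequences came from RefSeq (GRCh38.p14). Counts over the lists without ΔNp63α replicate 3 were added after seeing the data. Background correction was not varied, since the files hold finished values. An array has no read depth.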

Additional observations from a re-analysis of the deposited data

How the results depend on the processing

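Of 54 member values (9 genes, 6 comparisons), 23 were called; 16 of these were called under all 26 alternatives run (11 settings and 15 fits without 1 array each), 7 were lost under at least 1, and 0 changed sign. The counts of members called with ΔNp63α (6), with TAp63γ (6 or 7) and between the isoforms (4 or 5) held on leaving out single arrays. The knockdown counts moved: without 1 array they ran from 1 to 3 for shDBD (main 2), from 0 to 1 for shTA (1) and from 0 to 4 between the hairpins (3). With the arms fitted separately they were 4, 3 and 6. With a replicate block limma called 0 for shTA (2 members at an unadjusted p under 0.05) and 0 between the hairpins (5 members). For shTA it also called 0 with values floored at the 20th percentile and 0 with the mean over all probe sets of a gene (3 members each at an unadjusted p under 0.05). The cause was not tested. Whether the replicate numbers pair the arrays was not settled. Deviations of same-numbered arrays gave correlations of 0.00137 to 0.069 for knockdown, where 12 of 12 went best with their own number. With 2 arrays per group the deviations mirror each other, so these 12 are not independent and cannot decide it. For overexpression the correlations ran from −0.628 to 0.476, and 4 of 18 went best with their own number. The block also ended the NFKBIE call between the isoforms (−0.20, adjusted p = 0.0724).

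The sign changed in uncalled values near 0. RELA with shDBD was −0.02 with cyclic loess and −0.08 with the mean of its probe sets, TNFAIP2 between the hairpins 0.02 with the mean of its probe sets, and RELB between the isoforms 0.01 with quantile normalization and 0.03 with cyclic loess. Without single arrays, RELA with shDBD ran from −0.02 to 0.05, NFKB1 with shTA from −0.15 to 0.02, REL with TAp63γ from 0 to 0.15, and, between the hairpins, NFKB1 from −0.08 to 0.05 and TNFAIP2 from −0.20 to 0.06. Between the isoforms RELB ran from −0.08 to 0.10, NFKBIA from −0.07 to 0.12 and TNFAIP2 from −0.07 to 0.17.

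Over all genes, shTA called 274, against 1064 with the arms fitted separately, 150 with the replicate block and 87 to 472 without 1 array. The hairpins differed in 2197 genes, against 3359 with separate arms and 1348 to 2588 without 1 array, and shDBD called 2543, or 1650 to 2968. The counts moved most for shTA without shRNA vector replicate 1 (90) or 2 (95), shTA replicate 1 (131) or 2 (87) or ΔNp63α replicate 3 (472), between the hairpins without shDBD replicate 1 (1348) or shTA replicate 2 (1463), and for shDBD without shRNA vector replicate 1 (1650). Testing all probe sets rather than genes called 4010 probe sets for shDBD, 3389 between the hairpins, 5650 for ΔNp63α, 8926 for TAp63γ and 8110 between the isoforms.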

Other observations

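Over the 15 arrays, after each arm's vector mean was subtracted, the members did not all follow one pattern. RELB, NFKBIA, NFKBIE and TNFAIP3 correlated with one another at 0.908 to 0.981, and NFKB2 correlated with RELA at 0.909, with NFKBIE at 0.903, with TNFAIP3 at 0.882 and with RELB at 0.847. REL correlated with NFKB2 at −0.035 and with TNFAIP3 at 0.243, and TNFAIP2 with TNFAIP3 at −0.233. These are descriptions over arrays that share groups.

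Within the pathway lists, some genes, named here after their values were seen, differed between the isoforms in the direction opposite to NFKB2 and RELA. The kinase TBK1, which acts on interferon regulatory factors, was higher with ΔNp63α than with TAp63γ (1.03 ± 0.09), as were the adaptor TRAF5 (0.78 ± 0.11), the A20 partner TAX1BP1 (0.73 ± 0.066) and the ubiquitin ligase BIRC2 (0.70 ± 0.087). Their lists went both ways, where 19.2% of all genes were called higher with ΔNp63α than with TAp63γ and 20.6% lower. Of 28 adaptors and kinases, 8 were higher and 8 lower with ΔNp63α. Of 26 other inhibitors and brakes, 5 were higher and 7 lower with ΔNp63α, and 7 higher and 5 lower without ΔNp63α replicate 3.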
